A study of Mus musculus with 12 samples.

Results

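The TET and DNA methyltransferase genes comprised 8 members, Tet1, Tet2, Tet3, Dnmt1, Uhrf1, Dnmt3a, Dnmt3b and Dnmt3l, of 21887 protein-coding genes in the RefSeq reference. They were taken by gene name, though with earlier results of these data known, and each was examined over its RefSeq span with 10 kb on each side, called its window here. In 12 mouse ChIP-seq samples the study mapped the transcription factor KLF4 and H3K27ac, the histone acetylation found at active regulatory DNA. V6.5 embryonic stem cells (ESCs) held a lentiviral Cas9 that doxycycline switches on, together with guides that the labels give as directed at KLF4 only or at all of KLF2, KLF4 and KLF5. H3K27ac was measured there in 2 samples before induction (0 h, labelled WT) and in 2 after 24 h of doxycycline (labelled KLF4 KO), and since the titles of all 4 also say TKO, which of these genes were cut is not settled here. Induced pluripotent stem cells (iPSCs) gave 2 KLF4 and 2 H3K27ac samples, and the other 4 samples were inputs. All were labelled as grown in 2i, a pair of inhibitors of MEK and GSK3 that keeps mouse pluripotent cells naive. The ESCs were picked clones kept with serum and LIF on irradiated feeder cells, and the 0 h cells carried the vector and guides too.

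DNA methyltransferases place methyl groups on cytosine, and TET dioxygenases oxidise them, which starts their removal. DNMT1 copies methylation onto the new strand after replication, and UHRF1 recognises hemimethylated DNA and brings DNMT1 to it. DNMT3A and DNMT3B methylate unmethylated DNA, helped by DNMT3L, a relative without catalytic activity. In mouse ESCs, TET1 and TET2 are the TET enzymes usually expressed, TET3 is best known from the oocyte and zygote, and naive cells in 2i are known for a hypomethylated genome.

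Each of the 4 ChIP groups was represented by 1 deposited list without values per sample. No replicate error, read depth or test across samples could therefore be given, and every difference below is a description of these lists. The ESC lists held bins of 10 kb with an H3K27ac value, absent in many bins, and a whole number of unstated meaning, called the score here. The 0 h list had 49460 bins, 26812 of them valued with a median of 4.65, and the 24 h list had 47307 bins, 25611 of them valued with a median of 4.05. Positions of 21563 KLF4 peaks and 55466 H3K27ac peaks were given for the iPSCs. The labelled cell types were checked on marker genes: 8 of 8 pluripotency genes had a valued bin at 0 h and iPSC H3K27ac peaks over 27.3% to 61.4% of their windows (median 44.1%), with highest bin values of 7.32 to 29.7 at 0 h and 5.08 to 24.2 at 24 h. Among 8 genes typical of fibroblasts, from which feeders are made, 4 had a valued bin at 0 h, with highest values of 2.98 to 9.53 at 0 h and 2.59 to 6.71 at 24 h, and 3 had an iPSC H3K27ac peak, while Thy1, Col1a2, Postn and Twist1 had neither. Valued 0 h bins were found at 2 of 3 neuroectoderm, 1 of 4 mesendoderm, 2 of 4 primitive endoderm and 2 of 4 trophectoderm genes, and iPSC H3K27ac peaks at 0, 2, 1 and 2 of them. Over all gene windows, 56% had a valued bin at 0 h and 59.7% had an iPSC H3K27ac peak. Counts near these shares, such as that of valued fibroblast genes, say little about the cells present. The part of feeder cells in the values below was not tested, and the change of these marker genes with time is given with that of the members.

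The start regions of Uhrf1, Dnmt1 and Dnmt3l are printed because a KLF4 peak lay over them in iPSCs, and that of Dnmt3b because it holds a KLF4 motif although no KLF4 peak lay over it. Each is the run of 250 bases before a RefSeq start site, from RefSeq for build GRCm38.p6, printed 5′ to 3′ along the gene. Capitals mark matches, on either strand, to the KLF4 motif in its forms GGGTGTGGC, GGGTGGGGC, GGGCGTGGC and GGGCGGGGC, or to the shorter box GGGTG or CACCC, which the forms with GGGTG also contain.
Uhrf1, upstream start, chr17:56303087-56303336, + strand: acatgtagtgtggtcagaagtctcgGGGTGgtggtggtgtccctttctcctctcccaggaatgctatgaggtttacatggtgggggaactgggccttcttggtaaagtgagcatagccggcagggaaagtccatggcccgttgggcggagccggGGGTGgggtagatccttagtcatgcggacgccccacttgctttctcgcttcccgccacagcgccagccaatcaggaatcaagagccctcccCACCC
Uhrf1, downstream start, chr17:56304063-56304312, + strand: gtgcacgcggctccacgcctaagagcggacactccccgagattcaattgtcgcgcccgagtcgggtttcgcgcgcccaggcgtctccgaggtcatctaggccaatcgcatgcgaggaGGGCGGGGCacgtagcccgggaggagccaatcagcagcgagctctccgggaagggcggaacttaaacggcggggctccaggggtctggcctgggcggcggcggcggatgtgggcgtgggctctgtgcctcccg
Dnmt1, most downstream start, chr9:20952624-20952873, - strand: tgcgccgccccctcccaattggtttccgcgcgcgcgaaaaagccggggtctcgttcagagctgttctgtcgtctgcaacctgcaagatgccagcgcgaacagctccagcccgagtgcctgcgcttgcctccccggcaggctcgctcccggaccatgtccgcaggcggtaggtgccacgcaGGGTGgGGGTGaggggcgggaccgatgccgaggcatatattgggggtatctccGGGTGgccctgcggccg
Dnmt3l, middle start, chr10:78049592-78049841, + strand: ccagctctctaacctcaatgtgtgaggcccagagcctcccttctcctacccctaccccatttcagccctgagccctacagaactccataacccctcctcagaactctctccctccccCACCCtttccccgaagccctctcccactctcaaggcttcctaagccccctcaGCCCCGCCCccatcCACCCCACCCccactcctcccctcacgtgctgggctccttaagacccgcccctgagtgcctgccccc
Dnmt3b, chr2:153649199-153649448, + strand: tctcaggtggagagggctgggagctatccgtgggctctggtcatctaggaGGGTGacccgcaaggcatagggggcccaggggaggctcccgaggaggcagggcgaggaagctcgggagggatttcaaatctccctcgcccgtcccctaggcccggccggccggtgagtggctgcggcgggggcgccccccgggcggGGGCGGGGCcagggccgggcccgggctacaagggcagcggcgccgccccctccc
The KLF4 peaks covered 250, 178, 167 and 136 of the 250 bases in the Uhrf1 upstream, Uhrf1 downstream, Dnmt1 and Dnmt3l sequences. All 8 members had start sites in the reference, 15 in all. The longer motif was found before 4 of the 15 start sites, namely the Uhrf1 downstream, the Dnmt3l middle, the Dnmt3b and 1 of the 3 Dnmt3a start sites, and only the Uhrf1 and Dnmt3l matches lay in a KLF4 peak. None of the 3 short boxes of the Dnmt1 sequence lay in its KLF4 peak, whereas all 3 of the Uhrf1 upstream sequence did. Over all 32851 start sites of the reference, 14.6% held the longer motif and 52.0% the short box. The longer motif stood before 47.1% of the 4913 start sites with a KLF4 peak in these 250 bases and before 8.91% of the 27938 others. A match of letters is a description and shows no binding.

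KLF4 peaks lay in the windows of all 8 members, against 52.6% of all protein-coding gene windows, and iPSC H3K27ac peaks lay in 6 of 8, against 59.7%. Presence of a KLF4 peak thus did not divide the members, whereas H3K27ac coverage in iPSCs did. Tet1, Tet2, Uhrf1, Dnmt3l and, at a lower level, Dnmt1 had such coverage, and Tet3, Dnmt3a and Dnmt3b had almost none. The split was less sharp in ESCs, where the highest 24 h value was 2.72 at Dnmt3l, 2.50 at Dnmt3b and 2.19 at Dnmt3a. With 25 kb flanks, all 8 windows held an iPSC H3K27ac peak. Windows of long genes hold more peaks by length alone, so peaks are also given per 100 kb. The 24 KLF4 peaks of the members amounted to 3.61 per 100 kb, against 1.55 over all gene windows. By member, this density ranged from 1.71 at Dnmt3b to 7.47 at Uhrf1.

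Among the TET genes, the Tet1 window (gene at chromosome 10, 62804570 to 62887469) held 44 iPSC H3K27ac peaks over 30.2% of its length and 3 KLF4 peaks. The Tet2 window (chromosome 3, 133463677 to 133545136) held 44 H3K27ac peaks over 29.6% and 3 KLF4 peaks. Both shares lay in the upper tail of all genes, whose median was 0.904% and whose 95th percentile was 17.7%. The Tet3 window (chromosome 6, 83362373 to 83457208) held no H3K27ac peak, but 5 KLF4 peaks of 93 to 281 bp.

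Of the maintenance genes, Uhrf1 (chromosome 17, 56303337 to 56323486) had 14 H3K27ac peaks over 25.2% of its window and 3 KLF4 peaks. Dnmt1 (chromosome 9, 20907206 to 20959888) had 12 H3K27ac peaks over 6.65% and 2 KLF4 peaks. Per 100 kb, Uhrf1 had 7.47 KLF4 peaks and Dnmt1 had 2.75.

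The de novo genes were the most uneven. Dnmt3l (chromosome 10, 78042287 to 78063622) had 13 H3K27ac peaks over 20.1% of its window and 3 KLF4 peaks, or 7.26 per 100 kb. Dnmt3a (chromosome 12, 3801559 to 3914443) had 4 KLF4 peaks and 1 H3K27ac peak of 188 bp, and Dnmt3b (chromosome 2, 153649411 to 153687730) had 1 KLF4 peak and no H3K27ac peak. H3K27ac peaks thus covered a far larger share of the window of the cofactor gene than of the windows of Dnmt3a (0.141%) and Dnmt3b (0%).

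**Figure D1:**
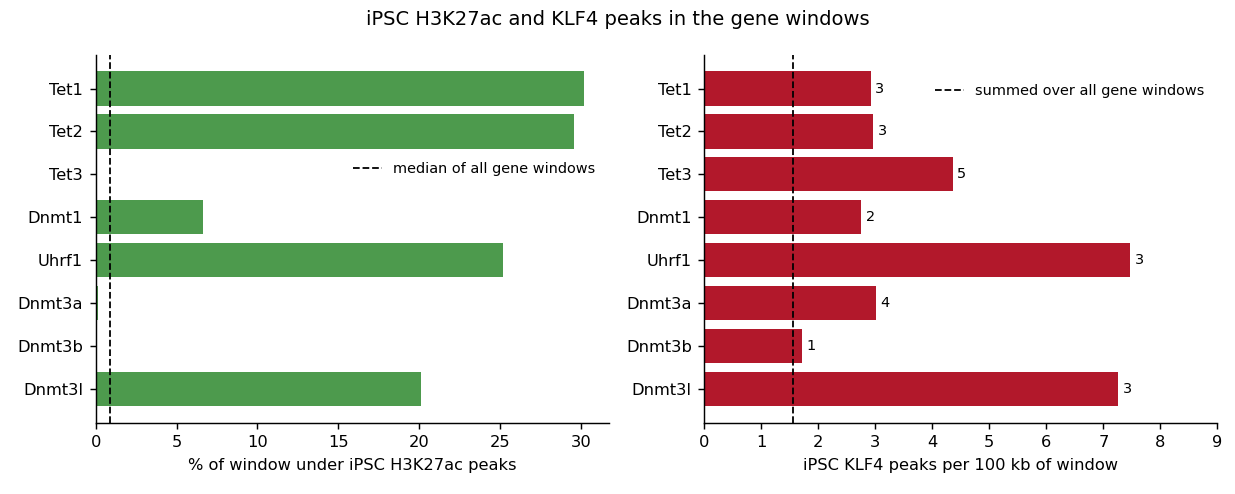
Bars give, for each gene window, the percent of its length under iPSC H3K27ac peaks (left) and the number of iPSC KLF4 peaks per 100 kb (right, with the number of peaks beside each bar). Dashed lines give the median of all gene windows (left, 0.904%) and the value summed over all gene windows (right, 1.55); Tet3, Dnmt3a and Dnmt3b had KLF4 peaks without H3K27ac coverage to match.

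Of the 24 KLF4 peaks, 14 overlapped an H3K27ac peak, a share near the 48.7% of all KLF4 peaks. These 14 were all the KLF4 peaks of Tet1, Tet2, Dnmt1, Uhrf1 and Dnmt3l. The other 10 lay at Tet3 and Dnmt3b, whose windows held no H3K27ac peak to overlap, and at Dnmt3a, which held 1, so this split follows from the H3K27ac peaks already described. Median widths were 314 bp in the former and 191.5 bp in the latter, against 262 bp over the whole list, with ranges of 130 to 872 bp and 93 to 431 bp that overlapped. Of the 24 peaks, 21 lay within the span of the gene itself and 8 were centred within 1 kb of one of its listed start sites. The span made up the larger part of each window, and the matching shares over all KLF4 peaks were not computed. Exons and introns were not told apart here.

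Start sites themselves lay inside a KLF4 peak in 3 of 15 cases, against 11% of all start sites. These were both Uhrf1 start sites and the middle Dnmt3l start site. At Uhrf1, the peaks were 402 bp (chromosome 17, 56303064 to 56303465) and 335 bp (56304135 to 56304469) wide, and a H3K27ac peak of 1840 bp covered both. At Dnmt3l, a narrow KLF4 peak of 173 bp (chromosome 10, 78049706 to 78049878) held the start site, and another KLF4 peak of 872 bp, wider than 99.4% of all KLF4 peaks, was centred upstream of it, at -1373 bp.

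The remaining peaks near start sites lay beside them. Dnmt1 had KLF4 peaks of 161 and 241 bp on either side of its most downstream start site, centred 128 bp after it and 152 bp after the start before it. Upstream of their nearest start sites, the Tet2 peak of 415 bp was centred at -478 bp and the Dnmt3a peak of 171 bp at -451 bp. The Dnmt3b peak of 320 bp was centred 804 bp inside the gene. Tet1 and Tet3 had no KLF4 peak centred within 1 kb of a listed start site. The Tet3 span, however, reached to -15.53 kb from its only listed start site, ending at 83457208. Near that upstream end, where no start site was listed, lay its KLF4 peaks at 83456268 to 83456427 and 83456662 to 83456942.

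**Figure D2:**
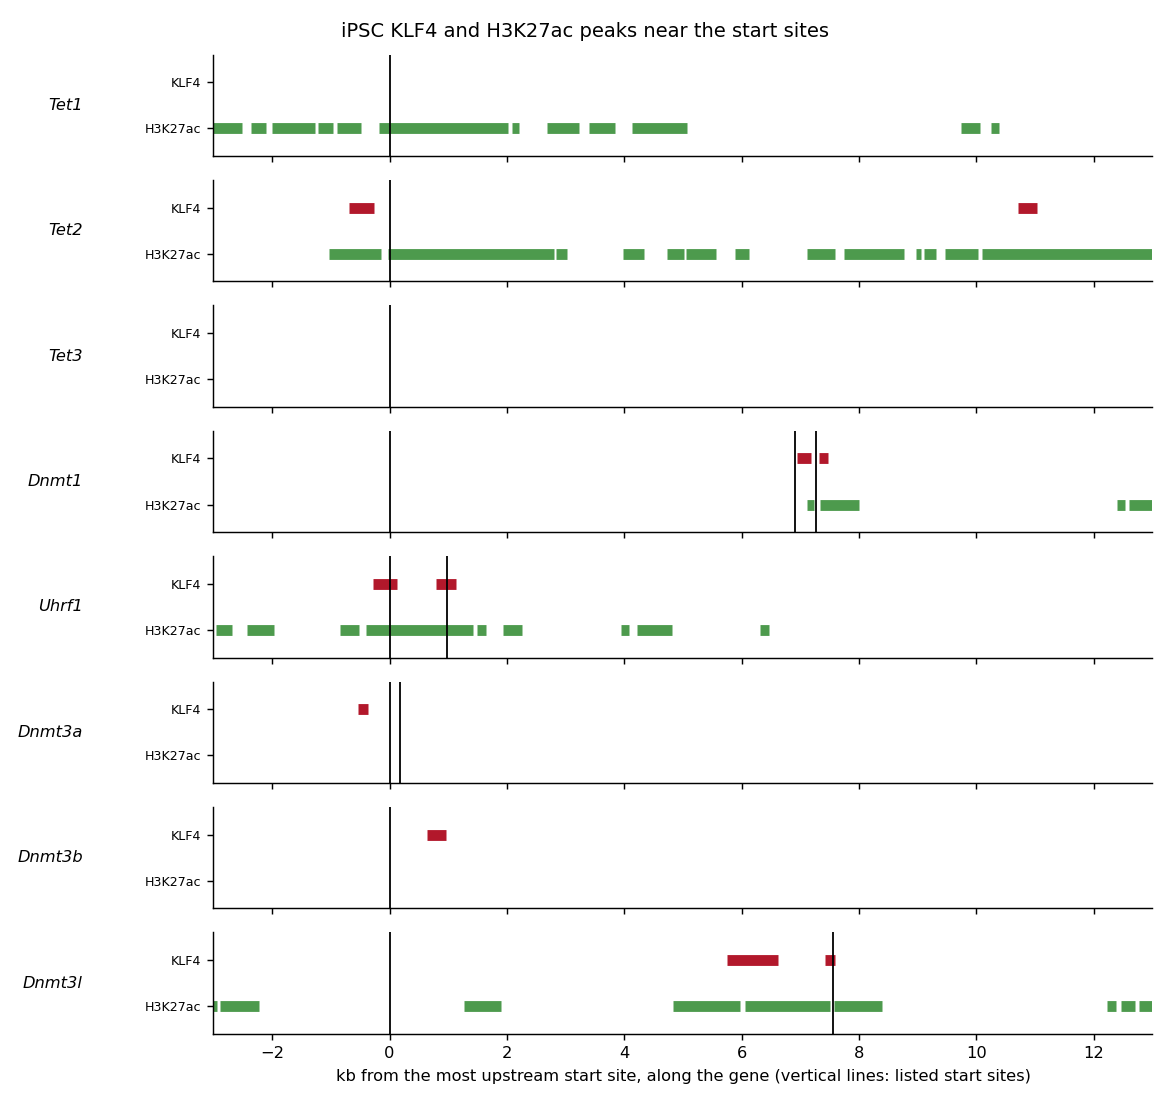
Horizontal bars show iPSC KLF4 peaks (red) and H3K27ac peaks (green) by distance in kb from the most upstream start site, along the direction of transcription, with a vertical line at each listed start site. Uhrf1 has both start sites under KLF4 and H3K27ac peaks, Dnmt3a and Dnmt3b have a KLF4 peak near the start without H3K27ac, and Tet3 has neither in this range. The last start sites of Dnmt3a and Dnmt3l lie to the right of the range shown.

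The Tet1 and Tet2 domains were arranged differently. The widest H3K27ac peak of Tet1 measured 7365 bp (chromosome 10, 62892220 to 62899584), stood in place 99 of 55466 by width, and was centred at -8578 bp from the Tet1 start. It held the upstream KLF4 peak of the window, of 258 bp, within the span of the lncRNA gene Gm51805, and extended past the window, where it held 2 more KLF4 peaks. The other 2 KLF4 peaks of Tet1 lay 32106 and 43229 bp inside the gene, the latter under a H3K27ac peak of 3885 bp. At Tet2 the 3 KLF4 peaks lay around the start and 10873 and 19432 bp inside the gene, the former under a H3K27ac peak of 3045 bp and the latter overlapping the edge of one of 3158 bp.

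In the ESC lists the windows of the members formed a graded order. A valued bin at 0 h was present in 7 of 8 windows, against 56% of all gene windows, with 11 such bins at Tet1, 9 at Tet2, 5 at Dnmt1, 4 at Uhrf1, 3 at Dnmt3l and 1 each at Dnmt3a and Dnmt3b. By the highest bin value, the order at 0 h was Tet1 (11.6), Tet2 (8.94), Uhrf1 (7.42), Dnmt1 (5.87), Dnmt3l (4.87), Dnmt3a (3.47) and Dnmt3b (3.41), and no bin of the Tet3 window was listed at either time. At 24 h the order was Tet1 (9.65), Uhrf1 (7.35), Dnmt1 (5.94), Tet2 (5.47), Dnmt3l (2.72), Dnmt3b (2.50) and Dnmt3a (2.19). These orders are of windows and partly rest on bins beside the gene. The highest bins of Uhrf1 and Dnmt3b at both times, and of Dnmt3l at 0 h, covered no part of the gene. Bins that touched Uhrf1 reached 6.13 at 0 h and 4.92 at 24 h, the latter below Dnmt1 and Tet2. Tet1 lay above the 95th percentile of valued bins at both times (10.2 and 8.28). Tet2 lay above the 90th percentile at 0 h (8.72) and just under the 75th at 24 h (5.48). These percentiles are of single bins, whereas a highest value over a window tends to rise with its number of bins. Percentiles of the highest values of all windows were not computed. Whether neighbours in these orders differ beyond replicate spread cannot be said from these lists.

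To compare the times, the log2 ratio of the 24 h to the 0 h value of each bin was set against the median over all 22739 bins valued at both times, which was -0.23, a ratio of 0.854. The mean of these relative log2 values over a window was 0.26 for Tet1, -0.35 for Tet2, 0.33 for Dnmt1, -0.14 for Uhrf1, -0.22 for Dnmt3b and -0.54 for Dnmt3l. Tet2 and Dnmt3l were thus at or below -0.25, as were 12.4% of 11243 gene windows, and Tet1 and Dnmt1 at or above 0.25, as were 14.2%. Below 0 lay 4 of 6, against 46.7% of all windows, and the median was -0.18, against 0.02, but 0.09 with 25 kb flanks, where all 8 members had a value. Dnmt3l had a lower value than all but 2.65% of gene windows and Tet2 than all but 6.96%. Without centring, the calls were 4 lower and 0 higher in place of 2 and 2, and centred on bins without KLF4 they were 3 lower and 1 higher. The values of Tet2 and Dnmt3l stayed at or below -0.28 and -0.44 under every alternative run, whereas Tet1 and Dnmt1 each fell under the limit, at 0.22, with 25 kb flanks. Tet1 was also at 0.03 without centring, at 0.20 centred on bins without KLF4 and at -0.04 by its highest bins, and Dnmt1 at 0.11 without centring and 0.24 by its highest bins. Of the marker genes, all 8 of pluripotency lay below 0 (median -0.15). Of the 4 fibroblast genes with a value, Vim (1.06) and Col3a1 (0.35), each from 1 bin, lay above 0.25, and Col1a1 (-0.18) and Fn1 (-0.12) lay below 0.

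**Figure D3:**
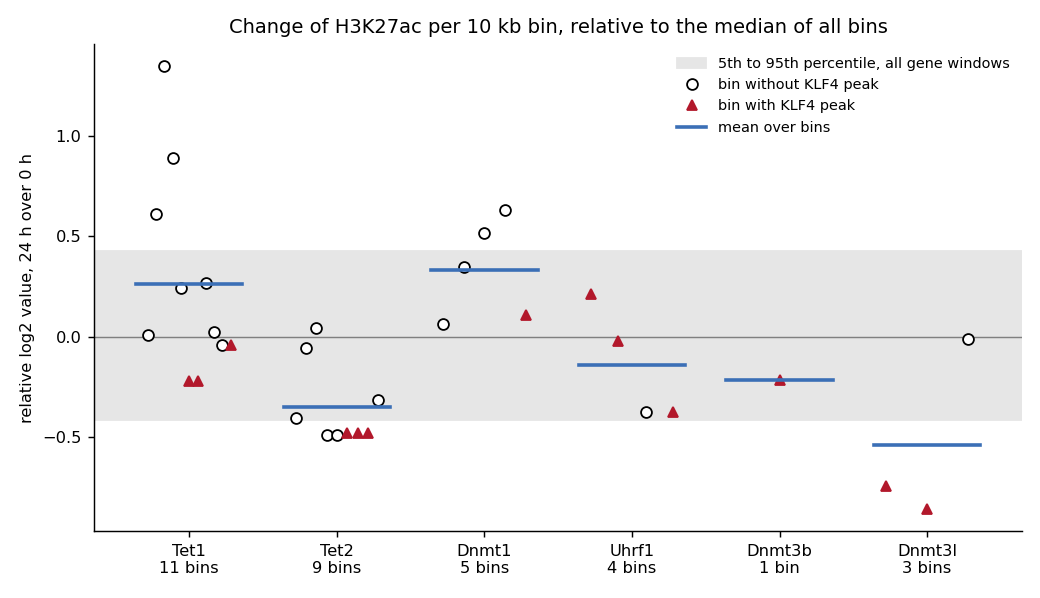
Each point is a 10 kb bin valued at both times, plotted by its relative log2 value of 24 h over 0 h, in genome order within each gene; red triangles are bins with an iPSC KLF4 peak, blue lines the mean per gene, and the grey band the 5th to 95th percentile of all gene windows (-0.42 to 0.43). Tet2 and Dnmt3l have most bins below 0, and the high bins of Tet1 and Dnmt1 lack a KLF4 peak. The band is of window means and the points are single bins, so a bin outside it cannot be read as extreme. The same range over single bins was not computed.

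Tet2 was lower at 24 h in a broad block, although none of its bins reached the bin limit of 0.5. Its 3 bins at the start of the gene (chromosome 3, 133520001 to 133550000), which shared a value in the deposited lists, went from 8.94 at 0 h to 5.47 at 24 h, a relative value of -0.48. The next 2 bins, toward the end of the gene, went from 7.87 to 4.79 (-0.49). Of its 9 bins valued at both times, 8 lay below 0 and the other, at 133490001 to 133500000, was at 0.04, so the SD over bins was 0.20 around the mean of -0.35. Since equal neighbours are not independent, the 9 bins amounted to 6 distinct runs, over which the mean was -0.28.

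Relative values of Tet1 differed along its length. The bins over the start and upstream (62880001 to 62900000) had 11.6 at 0 h and 9.65 at 24 h, which was -0.04 after centring. The inner pair with KLF4 peaks (62840001 to 62860000), which shared its values, went from 7.01 to 5.15 (-0.22, short of the bin limit of 0.5). Toward the end of the gene, 3 bins without KLF4 had low 0 h values of 3.25, 2.37 and 2.21, and at 24 h had 5.15, 5.15 and 2.88, with relative values of 0.89, 1.35 and 0.61. The neighbours at 0.89 and 1.35 had the same deposited 24 h value, so they are not independent. These 3 bins were the highest of 11, the SD over bins was 0.50 around the mean of 0.26, and the ratio of the highest bins gave -0.04 instead.

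Dnmt1 had relative values above 0 in each bin that could be compared. Its 5 bins valued at both times ranged from 0.06 to 0.63 with an SD of 0.25, and 2 of them were past 0.5, while 3 of its 8 bins lacked a value at 1 or both times. The largest was the bin next to that of the start sites (chromosome 9, 20940001 to 20950000), with 4.49 at 0 h and 5.94 at 24 h, and the bin with all 3 start sites and both KLF4 peaks (20950001 to 20960000) had 5.87 and 5.41 (0.11). The bin at 20900001 to 20910000 had no value at 0 h and 2.47 at 24 h. The lowest bin of the 5, at 0.06, covered no part of Dnmt1 but held Eif3g, which encodes a translation initiation factor subunit, and other genes.

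Uhrf1 was lower within the gene and not before it. The bin with both start sites (chromosome 17, 56300001 to 56310000) had 5.85 at 0 h and 4.92 at 24 h (-0.02). The 2 bins over the rest of the gene shared 6.13 and 4.04 (-0.38), and the second of them also touched Kdm4b, a histone demethylase gene. The highest values, 7.42 and 7.35 (0.21), were in the bin before the gene, which held parts of Arrdc5 and Plin3 and none of Uhrf1. Over the gene without flanks the mean was -0.26, at the edge of the call.

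Dnmt3l had the lowest relative value of the members, next to the gene Aire. The bin with its first 2 start sites (chromosome 10, 78040001 to 78050000) had 4.06 at 0 h and 1.91 at 24 h (-0.86), and Aire, the autoimmune regulator gene, reached into it. The bin before it (78030001 to 78040000), which held Aire and no part of Dnmt3l, went from 4.87 to 2.48 (-0.74). The bin over its last start site and middle (78050001 to 78060000) had 3.21 and 2.72 (-0.01). These are low values: at 24 h all 3 bins lay under the median of valued bins (4.05). At 0 h only the bin before the gene lay above that median (4.65). Acetylation of Aire and Dnmt3l cannot be told apart in the shared bin, and over the gene without flanks the mean was -0.44 from 2 bins.

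The enzymes of de novo methylation gave little to compare. For Dnmt3b, the only valued bin (chromosome 2, 153630001 to 153640000) lay before the gene, met the window at its edge and held part of Commd7, with 3.41 at 0 h and 2.50 at 24 h. The bin with the Dnmt3b start was listed at both times without a value. For Dnmt3a, the bin with its last start site (chromosome 12, 3890001 to 3900000) had 3.47 at 0 h and no value at 24 h, and the bin at 3870001 to 3880000 had 2.19 at 24 h and none at 0 h. No bin of Dnmt3a was valued at both times.

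**Figure D4:**
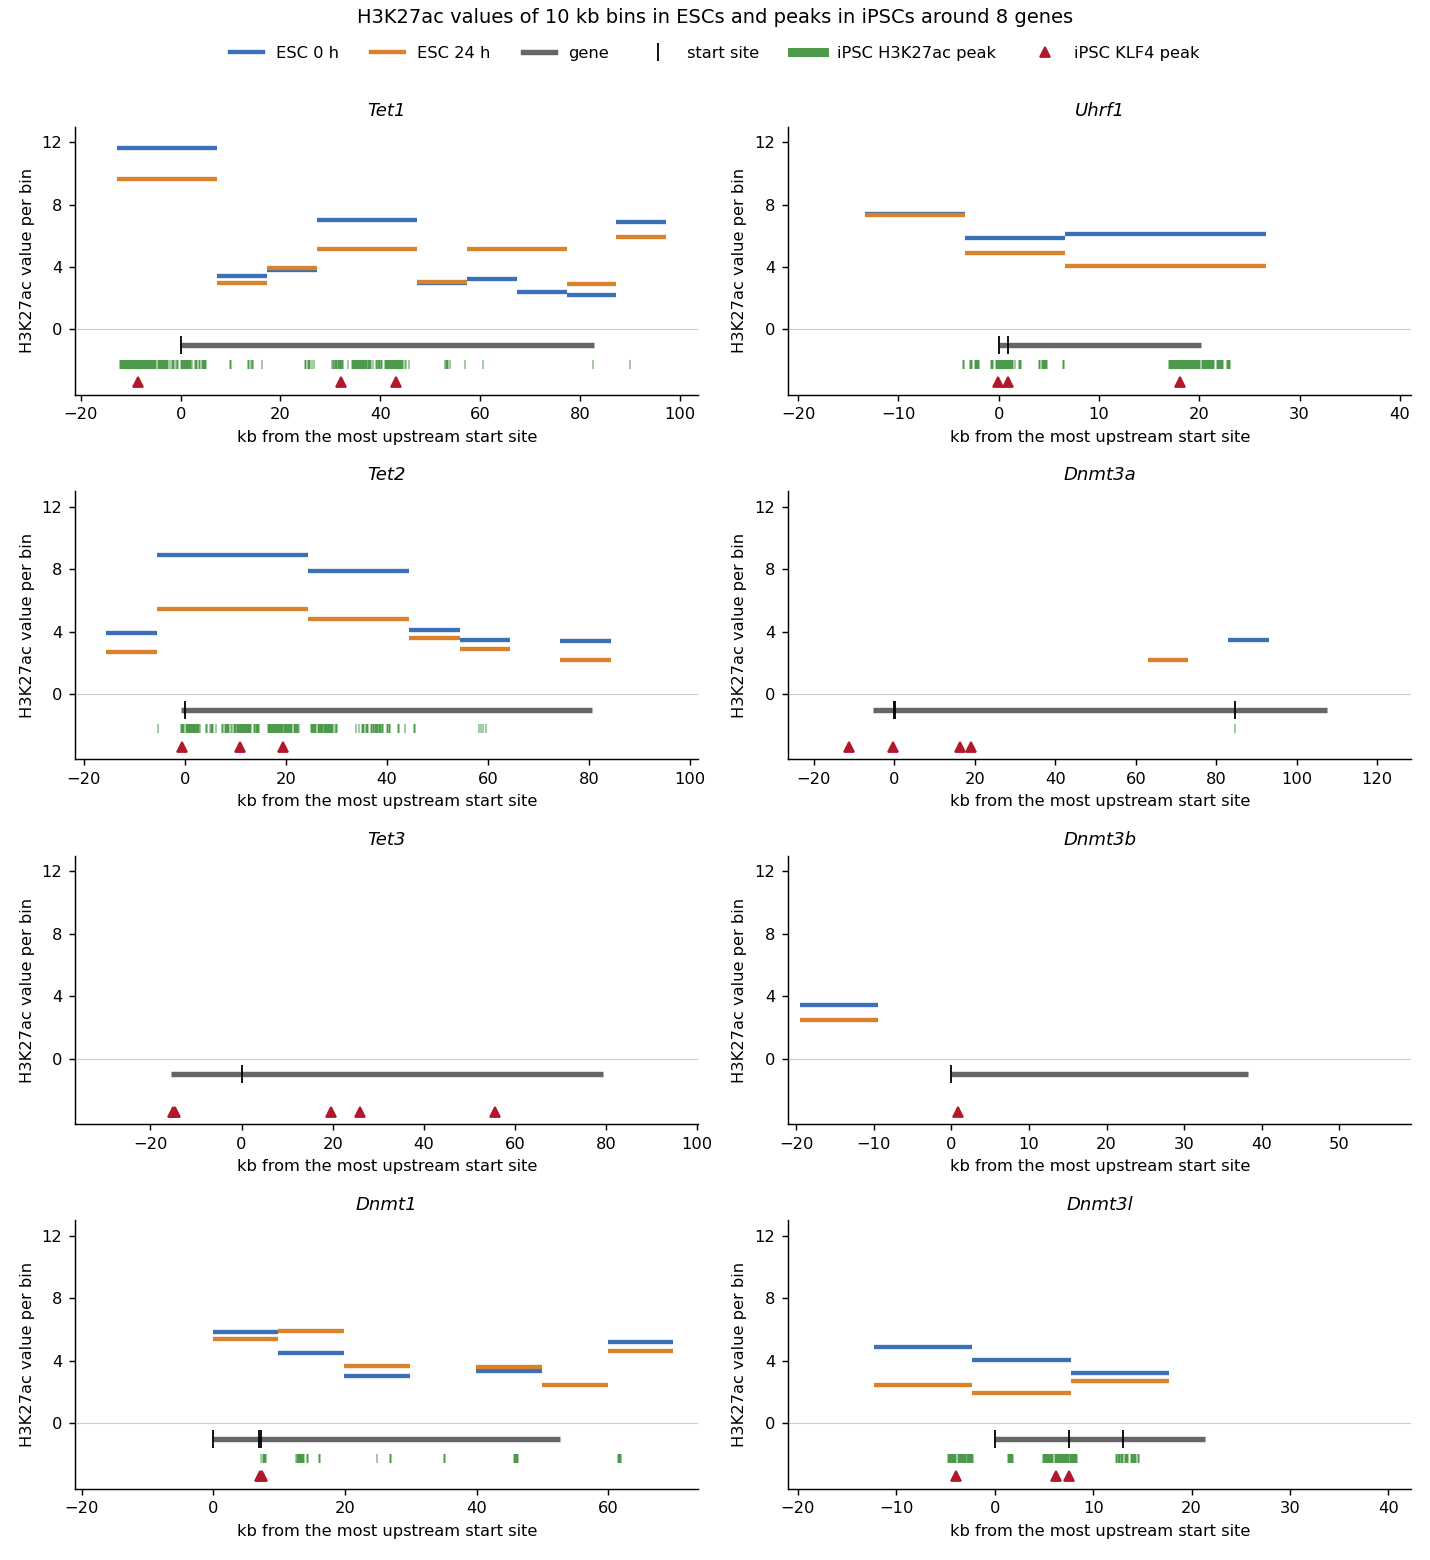
Horizontal lines give the deposited H3K27ac value of each 10 kb bin at 0 h (blue) and 24 h (orange) by distance in kb from the most upstream start site, along the direction of transcription; grey bars are the genes, black ticks start sites, green marks iPSC H3K27ac peaks and red triangles iPSC KLF4 peaks. The 24 h line lies far under the 0 h line at the start of Tet2 and Dnmt3l, and above it in the late part of Tet1; values of the times share no known scale, and the median ratio over all bins was 0.854.

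Over the 33 member bins valued at both times, 2 lay at or below -0.5, against 7.74% of all bins, and 5 at or above 0.5, against 7.25%. The 2 low bins were both at Dnmt3l and the 5 high bins at Tet1 (3) and Dnmt1 (2). Bins valued at 0 h only numbered 1 of 34, against 15.2% of all 0 h bins, and at 24 h only 2 of 35, against 11.2%. Limited to bins above the lower quartile of values, these counts were 4 of 23 and 4 of 23. The shares over all bins were not computed with that limit, so these counts cannot be read against 15.2% and 11.2%. The 13 bins with an iPSC KLF4 peak had a median of -0.22, and the 20 without had a median of 0.03. Over all bins these medians were -0.08 and 0.06. The means of bins with and without a peak were -0.16 and 0.42 at Tet1 and -0.48 and -0.29 at Tet2. They were 0.11 and 0.39 at Dnmt1, -0.80 and -0.01 at Dnmt3l, and, the other way, -0.06 and -0.38 at Uhrf1. Dnmt1, Dnmt3l and Uhrf1 each had only 1 bin on 1 side. These bins are not independent, since the 3 Tet2 bins with a peak held 1 shared value, as did the inner pair at Tet1. The only Uhrf1 bin without a peak, and the Tet1 bin over the start, shared values with neighbours that had one. The medians of bins with and without a peak thus count some values more than once. The 3 KLF4 peaks of the Uhrf1 bin before the gene and the 1 of the Dnmt3b bin lay outside the windows.

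Among members with a summed score of 20 or more, the 24 h share was lowest at Tet2. The score summed to 79 at 0 h and 58 at 24 h around Tet2, so the 24 h list held 42.3% of the sum of both, against 47.5% over all bins. Around Uhrf1 the sums were 32 and 28 (46.7%). The other members with scores were at or above the share of all bins, with 98 and 101 around Tet1, 60 and 61 around Dnmt1, 16 and 16 around Dnmt3l, 4 and 4 around Dnmt3b and 2 and 7 around Dnmt3a. Dnmt3l, with the largest relative drop in H3K27ac value, had equal sums at both times. The share over all members was 48.6%, from 291 and 275. Among 7472 gene windows with a total of 20 or more, the median share was 48.1% and the central range from the 5th to the 95th percentile was 36.9% to 59.3%, which includes every member with such a total. The bin before the Tet1 start (chromosome 10, 62890001 to 62900000) had the highest score of the members, 21 at 0 h and 19 at 24 h, where 0.423% of all 0 h bins had a score of 21 or more.

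**Figure D5:**
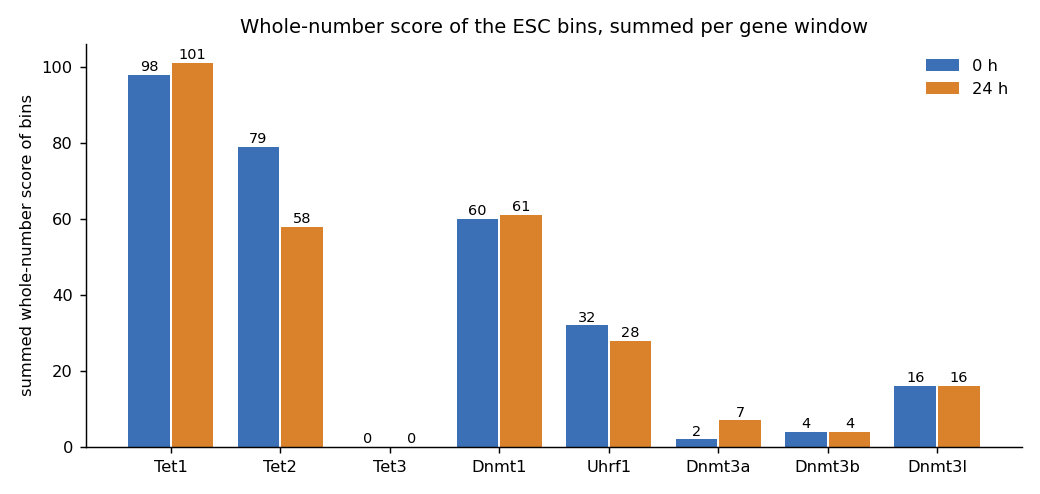
Bars give the whole-number score summed over the bins of each gene window at 0 h (blue) and 24 h (orange), with the sum above each bar. Tet2 went from 79 to 58, Tet1 and Dnmt1 differed by 3 and 1, and Tet3 had no listed bin.

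Other genes of DNA methylation and demethylation were described from 4 lists with 44 genes, read against the same shares of all gene windows as above (12.4% at or below -0.25 and 14.2% at or above 0.25). Of 14 partners and regulators, 13 had a relative value, with 3 at or below -0.25, 1 at or above 0.25 and a median of -0.05, and all 14 had a KLF4 peak. The 3 were Hmces (-0.78), which encodes a sensor of abasic sites, Setdb1 (-0.26), a histone H3K9 methyltransferase gene, and Zfp57 (-0.25), which keeps methylation at imprinted loci. The other was Hells (0.35), a chromatin remodeller gene needed for DNA methylation, and Trim28, the corepressor recruited by ZFP57, had the most KLF4 peaks (5) at -0.05.

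The list called readers of methylated DNA showed no gene past either limit. Of 7, 5 had a relative value, with a median of 0.11 and a range from Zbtb4 (-0.06) to Mbd3 (0.23), and 4 had a KLF4 peak, with the most at Mbd2 (3). Mbd3 belongs to the NuRD complex, and whether each listed protein binds methylated DNA was not examined.

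Base excision and demethylation repair genes had 12 of 14 with a value and a median of 0.13. The 3 at or above 0.25 were Gadd45a (1.14, from 1 bin), a stress-response gene, Ung (0.42), which removes uracil from DNA, and Tdg (0.29), the glycosylase that removes oxidised methylcytosine. The 1 at or below -0.25 was Smug1 (-0.54), another uracil glycosylase gene, which with Gadd45b (-0.18) had the most KLF4 peaks (4 each), and 9 of 14 had a KLF4 peak.

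Genes for the supply of cofactors had 9 of 9 with a value and a median of -0.08. Ahcy (-0.50), whose enzyme clears the product of methyl transfer, was at or below -0.25 and none was at or above 0.25. The highest was Shmt1 (0.14) and the most KLF4 peaks were at Idh2 (6, relative value -0.13), whose enzyme makes the alpha-ketoglutarate that TET enzymes use, and 8 of 9 had a KLF4 peak.

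Genes most like each member were sought by distance over 5 measures, namely mean log2 0 h value, relative value, summed 0 h score, KLF4 peaks and covered H3K27ac length, each scaled by its SD over genes. They were Npepps for Tet1 (relative value 0.22, distance 0.382), Nup210l for Tet2 (-0.26, 0.406), Srebf2 for Dnmt1 (0.41, 0.339), Gm35364 for Uhrf1 (-0.16, 0.0852), Acvr2b for Dnmt3b (-0.25, 0.243) and Nrp2 for Dnmt3l (-0.53, 0.455), out of 11239 to 11242 genes. The distance rests on 1 list per group and says only that these summary values lay close.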

How the data were processed

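H3K27ac and KLF4 ChIP-seq of mouse ESCs and iPSCs was available as 4 deposited lists, 1 per ChIP group, tied to groups by name. Bowtie2, SAMtools, bedtools and MACS2 with build mm10 are named in the submitters' processing notes, without versions or roles; the combining of replicates, called biological by the submitters, and the scaling are not given in the sources used here. The authors deposited the ESC H3K27ac signal per 10 kb bin, with a near-zero placeholder where there was none (read as no value), and beside it a whole-number score that the deposited lists do not explain. The iPSC lists hold positions only.

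Gene spans and start sites came from RefSeq for GRCm38.p6, the primary assembly of mm10. A bin or peak counted by an overlap of 1 bp with a span and 10 kb flanks. Relative values are means over bins valued at both times. A bin counted as changed past 0.5 and a window past 0.25 (log2). Python 3.11.15 with pandas 2.3.3 was used, and the window code was tested on simulated data. Positions are 1-based. Members, lists, limits and likeness measures were chosen with earlier results of these data known. Named list genes were those past 0.25, the lowest and highest of a list, and the one with most KLF4 peaks. Marker lists served to check cell types. Alternatives changed flanks, centring, averaging, bins and peak widths.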

Additional observations from a re-analysis of the deposited data

How the results depend on the processing

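Of 219 values recomputed for 41 results under other settings, 188 stayed near the value reported (counts within 1.5 times, relative values within 1 SD over bins, members or genes, score shares within the half-width of an exact 95% binomial interval), and 1 of the values past 0.25 in size changed sign. That was the relative log2 value of Tet1, which was -0.0404 by its highest bins. These limits are wide, and large shifts counted as near. Among them were Tet1 at 0.03 and Dnmt1 at 0.11 without centring, and the median over members at 0.09 with 25 kb flanks. The count of 188 is therefore no measure of how stable the results are. Members at or below -0.25 numbered 4 without centring, and members at or above 0.25 numbered 0 without centring, 0 by the highest bins and 1 centred on bins without KLF4. Changes of sign also occurred for values under that size: the median over members turned to 0.09 with 25 kb flanks, where all 8 members had a value, and Uhrf1 to 0.21 by its highest bins. Limited to bins above the lower quartile, 4 member bins had a 0 h value only and 4 a 24 h value only. Shares over all bins were not computed with that limit. KLF4 peaks numbered 37 with 25 kb flanks and 11 among wide peaks, and H3K27ac peaks 57 among wide peaks. Tet2 ranged from -0.58 to -0.28 and Dnmt3l from -0.77 to -0.44 over these settings, and Dnmt1 from 0.11 to 0.40. The causes were not tested. No paired analysis was possible because the lists hold no values per replicate, and leaving out a replicate could not be run for the same reason. Read depth is unknown.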

Other observations

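With 25 kb flanks in place of 10 kb, the windows of Tet1 and Uhrf1 held 7 KLF4 peaks each in place of 3. Dnmt1 had 4 in place of 2, Dnmt3b 2 in place of 1 and Tet3 6 in place of 5, while Tet2 and Dnmt3l kept 3 each and Dnmt3a had 5 in place of 4. H3K27ac peaks within 25 kb numbered 2 at Tet3 and 1 at Dnmt3b, which had none within 10 kb.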
